A study of Mus musculus with 8 samples.

Results

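The Arp2/3 complex is the actin nucleator that builds branched filament networks. Its subunits were looked up by gene symbol in a table of 19688 mouse genes: Arpc1a, Arpc1b, Arpc2, Arpc3, Arpc4, Arpc5, Arpc5l, Actr2 and Actr3. All 9 were in the table, and all 9 passed the filter of at least 1 FPKM (a fragment density scaled for transcript length and library size) in at least 2 libraries, which left 10755 genes for the tests. The set was chosen by the FPKM of Arpc1b, which was lower in vitrified than in fresh embryos, so the values of that contrast are given here as a description, without a test. RNA had been sequenced from mouse blastocysts, the preimplantation embryos that hold an outer trophectoderm and an inner cell mass, in 3 groups. The fresh group (2 libraries) had not been vitrified, the vitrified group (3 libraries) had been vitrified and thawed without melatonin, and the melatonin group (3 libraries) went through the same steps with 1e-10 M melatonin in the vitrification and thawing solutions, a hormone with antioxidant activity. The sources used here give neither strain, maternal age nor the number of embryos in a library. They do not say that the libraries of a group came from separate animals, so the p-values reflect only how much these samples vary, which may be technical. The question was whether Arpc1b differed between the groups alone or together with the rest of the complex.

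Arp2/3 binds the side of an existing actin filament and starts a new filament as a branch. Actr2 and Actr3 encode the actin-related proteins Arp2 and Arp3, which stand in for the first subunits of the new filament. Arpc2 and Arpc4 form the core that holds the complex to the mother filament, and Arpc3 sits beside Arp3. Arpc1 is a beta-propeller subunit and Arpc5 links the propeller side to the rest. Both of these last positions can be filled by either of a pair of paralogs, Arpc1a or Arpc1b and Arpc5 or Arpc5l, and complexes with different paralogs are known to differ in activity. ARPC1B is the prevailing form in blood cells, where its loss causes an immune deficiency. The complex has to be switched on by nucleation-promoting factors of the WASP and WAVE families.

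The paralogs Arpc1a and Arpc1b lie side by side on the plus strand of chromosome 5. In GENCODE M21 on GRCm38 (mm10), Arpc1a spans chr5:145083830-145108761 and Arpc1b spans chr5:145114215-145130705, with 5453 bases between them. The sequences just upstream of their starts are shown because the genes are neighbours on 1 strand and had different values in the vitrified libraries. Each is the 200 bases from 250 to 51 bases before the RefSeq start (GRCm38.p6, 5′ to 3′, plus strand), at chr5:145083619-145083818 for Arpc1a and chr5:145114006-145114205 for Arpc1b. Capitals mark GC boxes, the letters GGGCGG or their reverse complement, which is the core of the motif that Sp-family factors bind.
Arpc1a: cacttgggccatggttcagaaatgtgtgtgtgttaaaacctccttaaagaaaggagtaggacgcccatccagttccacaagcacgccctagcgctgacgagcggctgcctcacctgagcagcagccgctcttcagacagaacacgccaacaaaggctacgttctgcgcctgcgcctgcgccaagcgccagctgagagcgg
Arpc1b: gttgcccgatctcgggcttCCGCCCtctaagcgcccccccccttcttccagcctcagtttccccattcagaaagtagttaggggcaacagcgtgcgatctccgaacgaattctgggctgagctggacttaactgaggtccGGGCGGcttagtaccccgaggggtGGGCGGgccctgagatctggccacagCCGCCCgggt

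The Arpc1b window held 4 GC boxes and the Arpc1a window held 0. Among all 32851 promoter windows of this length in the RefSeq table, 24.6% held at least 1 GC box and 1.77% held 4 or more. GC content was 63.5% in the Arpc1b window and 58.5% in the Arpc1a window, against a median of 51.5% over all windows. Neither window held the TEAD motif GGAATG (in 10.7% of windows), the AP-1 motif TGANTCA (5.57%), a CCAAT box (28.4%), the letters TATAAA (9.14%) or the CArG box of SRF (1.16%), all searched on both strands. Of the other subunits with a RefSeq window, Arpc5 held 2 GC boxes, Arpc2, Actr2 and Actr3 held 1 each, and Arpc3 and Arpc4 held 0. Arpc2 also held 1 TEAD motif, and Arpc4 held 1 CArG box. Arpc5l had no entry. These matches describe the letters of these windows.

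Across the table, the summed FPKM of a library ran from 370870 to 455880. Spacing of the low values gave an estimated 5845000 to 9865000 counted fragments per library, so that 1 FPKM over 1 kb stood for 5.84 to 9.87 fragments. More genes had a value above 0 in the vitrified libraries (15749 to 16400) than in the fresh (14260 and 14741) or melatonin libraries (14544 to 14889). The mitochondrial share of the summed FPKM was 11.3% in fresh replicate 1 and 4.24% to 6.56% in the other 7 libraries. Vitrified replicates 2 and 3 had 0 FPKM over 4 Y-linked genes and 10.5 and 8.14 FPKM of Xist, the transcript that silences an X chromosome in female cells, whereas the other 6 libraries had 20.9 to 36.8 FPKM of the Y-linked genes and 0.139 to 0.963 FPKM of Xist. Trophectoderm markers were abundant in every library, with summed levels of 7746 to 7824 FPKM in fresh, 6606 to 11056 in vitrified and 8865 to 11374 in melatonin libraries. The keratins Krt8 and Krt18 carried nearly all of that sum, with means over the 8 libraries of 2531 and 6536 FPKM. Means of the other markers ran from 10.2 for Elf5 to 112 for Gata3. Gata3 was higher in every vitrified than in every fresh library, 1 of 7 where 26.4% of all tested genes were. Elf5 and Eomes were lower, 2 of 7 where 10.6% were.

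Levels of the 9 subunits within a library differed by 37.7 to 82.9 times from the highest to the lowest, on the FPKM scale that allows for transcript length. Arpc2, the core subunit, was the highest in all 8 libraries. Arpc5 came next among the subunits, at 261 to 547 FPKM. Arpc3 was the lowest subunit in 7 libraries, and Arpc1b was the lowest in vitrified replicate 2. Arpc1b ranked 6 and 7 among the 9 in the fresh libraries, 8, 9 and 8 in the vitrified libraries and 5, 7 and 8 in the melatonin libraries. Its coefficient of variation over the 8 libraries was 57.2%, and those of the other subunits ran from 15.4% for Arpc1a to 39.2% for Arpc3.

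**Figure D1:**
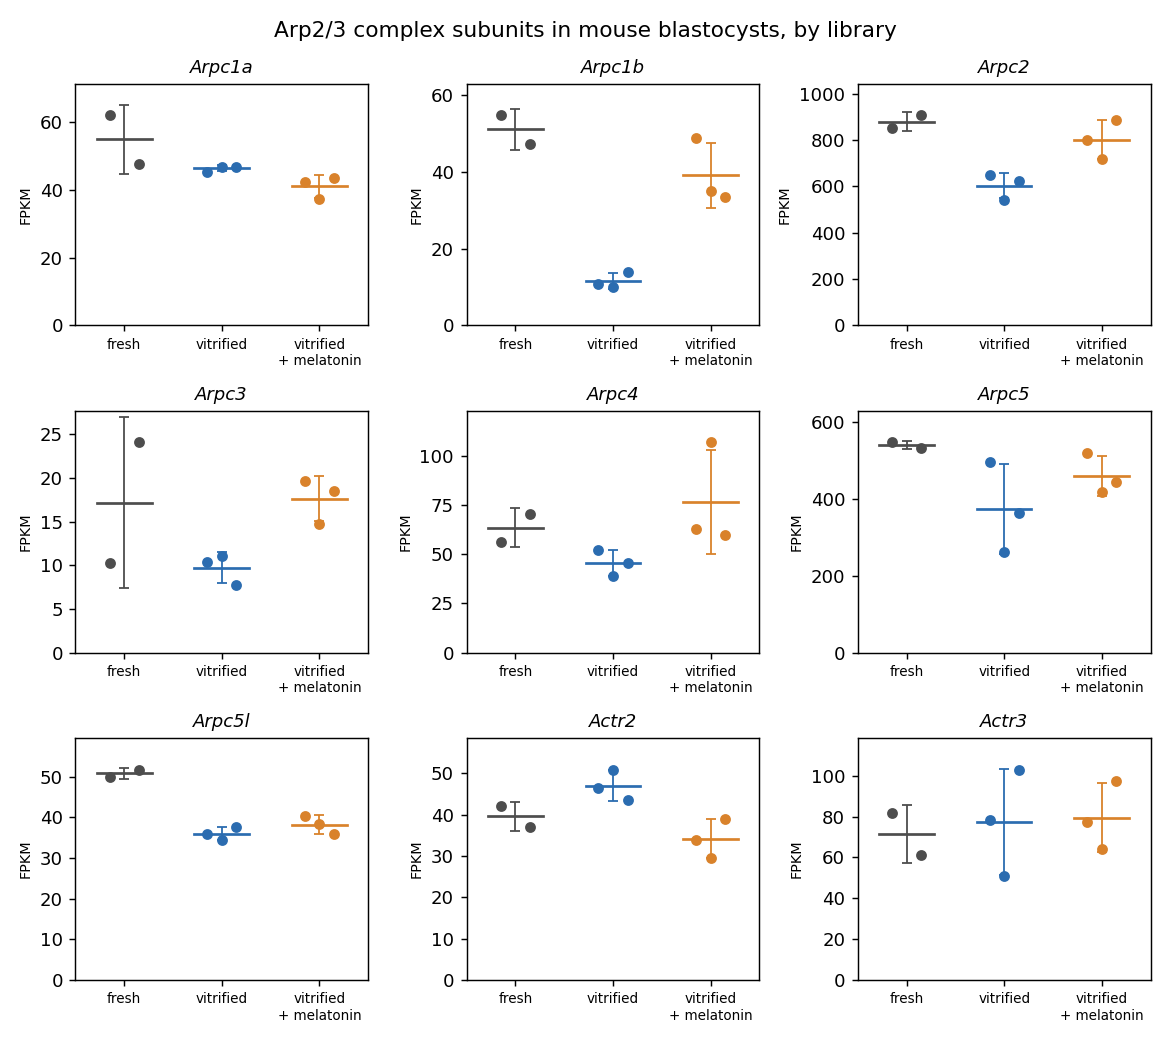
FPKM of each Arp2/3 subunit in each library (points), with the group mean and SD, for the fresh (n = 2), vitrified (n = 3) and melatonin (n = 3) groups. Arpc1b lies at 9.93 to 13.9 FPKM in the vitrified libraries and at 33.5 to 54.9 FPKM in the other 5, while Arpc1a lies at 37.2 to 62.1 FPKM throughout.

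Arpc1b, the propeller subunit, was at 54.9 and 47.4 FPKM in the fresh libraries. It was at 10.9, 9.93 and 13.9 FPKM in the vitrified libraries. It was at 49.0, 35.2 and 33.5 FPKM in the melatonin libraries. Every vitrified library was thus below every fresh and every melatonin library, and the fresh and melatonin ranges overlapped. Vitrified replicate 1 had Y-linked transcripts, as all fresh and melatonin libraries did, and vitrified replicates 2 and 3 had none. Embryo sex is thus in part confounded with the vitrified group, and its part in the Arpc1b values was not tested. Group means were 51.1 ± 5.28 (SD, n = 2) in fresh, 11.6 ± 2.08 (SD, n = 3) in vitrified and 39.2 ± 8.49 (SD, n = 3) in melatonin embryos, so that the fresh mean was 4.42 times and the melatonin mean 3.39 times the vitrified mean. In these bulk samples, fewer cells of a type and less RNA per cell cannot be told apart.

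Its paralog Arpc1a did not follow that pattern of values. Arpc1a was at 62.1 and 47.8 FPKM in fresh, at 45.4, 46.9 and 46.9 in vitrified and at 42.5, 37.2 and 43.5 in melatonin libraries. The vitrified libraries lay between the other groups, with every melatonin library below every vitrified library and every vitrified library below both fresh libraries. Both Arpc1 transcripts together came to 106 ± 15.4 FPKM (SD, n = 2) in fresh, 58.0 ± 2.49 (SD, n = 3) in vitrified and 80.3 ± 9.91 (SD, n = 3) in melatonin embryos.

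Arpc1b made up 46.9% and 49.8% of the summed Arpc1a and Arpc1b FPKM in the fresh libraries. The share was 19.4%, 17.5% and 22.9% in the vitrified libraries and 53.6%, 48.6% and 43.5% in the melatonin libraries. All 3 vitrified shares lay below the other 5. Melatonin exceeded vitrified embryos by 28.6 percentage points, with p = 0.1 in a two-sided exact permutation test, the smallest p that 3 against 3 libraries allow, and an adjusted p of 0.2 over the 2 shares tested. Melatonin and fresh embryos differed by 0.20 points (exact permutation p = 0.9, adjusted p = 0.9). The sign of that second difference turned without melatonin replicate 1, to -2.31 points, and without fresh replicate 1, to -1.24 points. Both tests reuse a group from the contrast that singled out Arpc1b.

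**Figure D2:**
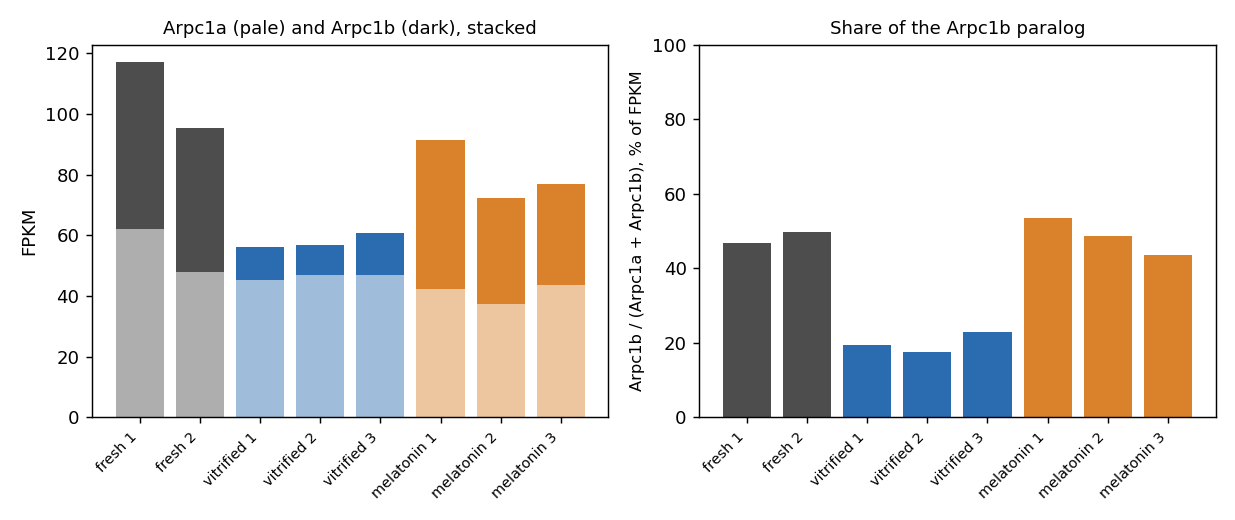
Left, stacked FPKM of Arpc1a (pale) and Arpc1b (dark) in each library, and right, Arpc1b as a percentage of the summed FPKM of both paralogs, with 1 bar per library (fresh grey, vitrified blue, melatonin orange). The vitrified shares sit at 17.5% to 22.9% and the others at 43.5% to 53.6%.

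The other pair of paralogs had no such difference in share. Arpc5 was at 547 and 534 FPKM in fresh, at 495, 261 and 364 in vitrified and at 519, 417 and 445 in melatonin libraries. Arpc5l was at 49.8 and 51.8 FPKM in fresh, at 35.8, 34.5 and 37.7 in vitrified and at 40.4, 38.3 and 35.8 in melatonin libraries. Arpc5l had 8.34% and 8.85% of the pair's FPKM in fresh, 6.75% to 11.7% in vitrified and 7.23% to 8.41% in melatonin libraries, and the vitrified range spanned the others. Both fresh libraries had more Arpc5l than any of the 6 vitrified or melatonin libraries.

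The core subunit Arpc2 was at 850.8 and 907 FPKM in fresh, at 647, 541 and 622 in vitrified and at 801, 719 and 885 in melatonin libraries. All 3 vitrified libraries were below the other 5, the same order of groups as for Arpc1b with a smaller ratio: the vitrified mean was 0.687 times the fresh mean, and the melatonin mean was 1.33 times the vitrified mean. Arpc4, its partner in the core, was at 56.4 and 70.4 FPKM in fresh, at 52.2, 39.2 and 45.4 in vitrified and at 62.7, 107 and 59.9 in melatonin libraries. Here too the vitrified libraries were the lowest 3, and melatonin replicate 2 stood highest. Arpc3, the subunit beside Arp3, was at 10.3 and 24.1 FPKM in fresh, at 10.4, 11 and 7.68 in vitrified and at 19.7, 14.7 and 18.4 in melatonin libraries. The vitrified and melatonin libraries did not overlap, but the fresh libraries overlapped both.

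Actr2, which encodes Arp2, had its highest values in the vitrified libraries. It was at 42.1 and 37.1 FPKM in fresh, at 46.5, 51 and 43.5 in vitrified and at 33.9, 29.6 and 39.1 in melatonin libraries, so that every vitrified library was above the other 5. Actr3, which encodes Arp3, was at 81.6 and 61.4 FPKM in fresh, at 78.4, 50.9 and 103 in vitrified and at 77.3, 64.0 and 97.3 in melatonin libraries, and all 3 groups overlapped. Actr3b, a paralog of Actr3 that was not among the 9, was at 0.482 to 1.55 FPKM over the 8 libraries, and its groups overlapped. Summed over the 9 subunits, the level was 1768 ± 17.9 FPKM (SD, n = 2) in fresh, 1251 ± 190.5 (SD, n = 3) in vitrified and 1588 ± 109 (SD, n = 3) in melatonin embryos. Without Arpc1b the sums were 1717 ± 23.2, 1239 ± 189.7 and 1549 ± 107 FPKM, so that the differences between groups lay mostly in the abundant Arpc2 and Arpc5.

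Melatonin against vitrified embryos was tested with limma on log2(FPKM + 1) over all 10755 genes, with Benjamini-Hochberg adjustment. The vitrified libraries are those that had singled out Arpc1b against fresh embryos, so its call is not independent of that choice. Arpc1b rose in the melatonin embryos, by 1.67 ± 0.19 (log2, SE; 95% interval 1.24 to 2.10; adjusted p = 0.0172, limma). It was 1 of the 9 subunits called, in a comparison that called 0.139% of all tested genes and 0.0279% as higher. The log2 differences of the other 8 subunits ran from -0.45 to 0.80, and none passed (lowest adjusted p = 0.23, limma). At an unadjusted p below 0.05, 5 of the 9 subunits passed, against 14.8% of all tested genes. Those 5 were Arpc1b, by which the set was chosen, Arpc2, Arpc3 and Arpc4, and Actr2, which was lower. The call for Arpc1b was lost without vitrified replicate 2 (adjusted p = 0.0503, limma), without melatonin replicate 1 (0.0656) and without melatonin replicate 3 (0.0735), and its log2 difference stayed between 1.5 and 1.80 when any 1 library was left out.

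The remaining subunits fell on both sides of 0 in that comparison. Arpc3 differed by 0.80 ± 0.28 (log2, SE; 95% interval 0.17 to 1.44; adjusted p = 0.251, limma). Arpc4 differed by 0.69 ± 0.23 (0.18 to 1.21; adjusted p = 0.234) and Arpc2 by 0.41 ± 0.13 (0.11 to 0.71; adjusted p = 0.23). These 3 intervals lay above 0, and of them only that of Arpc3 reached into the interval of Arpc1b. Actr2 differed by -0.45 ± 0.15 (-0.79 to -0.12; adjusted p = 0.234, limma), an interval below 0. Arpc5 (0.34 ± 0.21), Arpc5l (0.08 ± 0.13), Actr3 (0.07 ± 0.26) and Arpc1a (-0.18 ± 0.15) had intervals that included 0. The melatonin and vitrified libraries did not overlap for 6 of the 9 subunits, where 24.7% of all tested genes had no overlap. Arpc1b, Arpc2, Arpc3 and Arpc4 were higher in melatonin embryos, 4 of 9 where 9.3% of all tested genes had such a separation, and Arpc1a and Actr2 were lower, 2 of 9 where 15.4% did. The 6 and the 4 include Arpc1b, by which the set was chosen. The median log2 difference of the 9 subunits was 0.34, beside -0.05 over all tested genes.

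**Figure D3:**
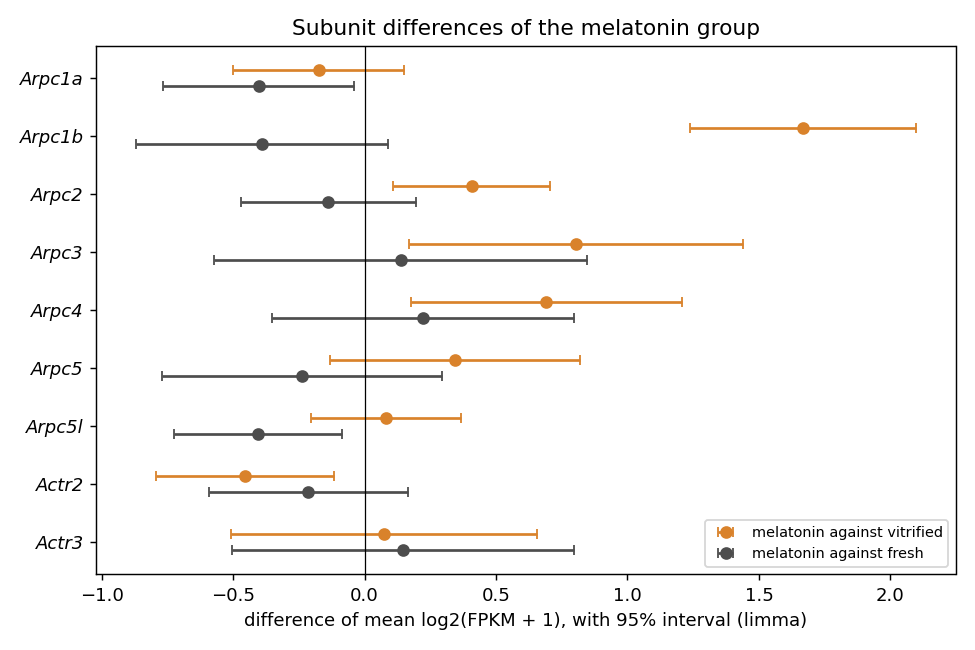
Log2 differences of log2(FPKM + 1) for each subunit between melatonin and vitrified embryos (orange) and between melatonin and fresh embryos (grey), with points for the limma estimate and bars for its 95% interval. Arpc1b lies at 1.67 against vitrified embryos, where the other 8 subunits lie between -0.45 and 0.80.

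Melatonin against fresh embryos gave no subunit that passed. None of the 9 was called with limma, where 0.0% of all tested genes were called, and 2 of the 9, Arpc1a and Arpc5l, had an unadjusted p below 0.05, against 18.5% of all tested genes. None of the 9 was called under any of the other 7 settings or with any 1 library left out. Arpc1b differed by -0.39 ± 0.21 (log2, SE; 95% interval -0.87 to 0.09; adjusted p = 0.358, limma), so that the interval allows a level well below that of the fresh embryos as well as an equal one. Arpc5l differed by -0.40 ± 0.14 (adjusted p = 0.197) and Arpc1a by -0.40 ± 0.16 (adjusted p = 0.236). Differences of the other 6 subunits ran from -0.24 for Arpc5 to 0.22 for Arpc4. The fresh and melatonin libraries did not overlap for Arpc1a, Arpc5 and Arpc5l, all lower in melatonin embryos, which is 3 of 9 where 13.5% of all tested genes had that separation (34.3% in either direction), and for 0 of 9 higher in melatonin embryos, where 20.8% of all tested genes were. The median of the 9 was -0.21, beside 0.09 over all tested genes.

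Vitrified against fresh embryos is the contrast that singled out Arpc1b, and its values are a description. The log2 difference of Arpc1b was -2.06 ± 0.21 (SE). Those of the other 8 subunits ran from -0.67 for Arpc3 to 0.24 for Actr2. Arpc5 was at -0.58 ± 0.24, Arpc2 at -0.54 ± 0.15, Arpc5l at -0.49 ± 0.14, Arpc4 at -0.47 ± 0.26, Arpc1a at -0.23 ± 0.16 and Actr3 at 0.07 ± 0.29. In 6 subunits, Arpc1a, Arpc1b, Arpc2, Arpc4, Arpc5 and Arpc5l, every vitrified library was below both fresh libraries, where 10.6% of all tested genes had that separation. The 6 include Arpc1b, by which the set was chosen in this same contrast. Actr2 was above in every vitrified library, where 26.4% of all tested genes were, and 37.0% of all tested genes separated in either direction. The median over the 9 was -0.49, while the median over all tested genes was 0.14. A median ratio scaling removes that shift, and with it Arpc1b was at -2.22, Arpc2 at -0.72 and Arpc5 at -0.75. Actr2 was then at 0.074 and Actr3 at -0.098. Quantile normalization left an overall median of -0.02, with Arpc1b at -2.12, Actr2 at 0.20 and Actr3 at 0.079. Arpc2 and Arpc5 were then at -0.39 and -0.36, smaller differences than in the main fit. How far the subunits lay below the other genes thus depended on the scaling. The value of Arpc3 rested on a fresh pair that differed: it was -1.24 without fresh replicate 1 and -0.09 without fresh replicate 2. That of Arpc1a was -0.04 without fresh replicate 1 and -0.41 without fresh replicate 2. The comparisons share libraries, so the order of groups in one is not independent of that in another.

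The likeness of other genes to Arpc1b over the 8 libraries was measured as Pearson's r of log2(FPKM + 1). It was taken among 5193 tested genes with a mean of at least 5 FPKM. Provisional symbols (Gm or Rik), pseudogene symbols and symbols that start with a digit were left out. The values are a description, since the points share 3 groups and these libraries singled out Arpc1b. The 6 most alike genes were Cptp, which encodes a ceramide-1-phosphate transfer protein (r = 0.976), the small GTPase Rap1b (0.972), the RNA-binding protein gene Rbm18 (0.967), the tight junction gene Cldn4 (0.960), the transmembrane protein gene Tmem109 (0.936) and Napa, a SNARE-disassembly factor (0.935). Cldn4 was at 979 and 876 FPKM in fresh, at 353, 354 and 494 in vitrified and at 713, 702 and 814 in melatonin libraries, with the vitrified libraries lowest. Rap1b had the same order of groups over a narrower range, at 281 and 256, at 213, 199 and 206, and at 264, 242 and 249 FPKM. Among the subunits Arpc2 was the most alike, at r = 0.898 and rank 26 of the 5193. Arpc5l (0.730), Arpc5 (0.714), Arpc3 (0.643) and Arpc4 (0.631) ranked from 237 to 423. Arpc1a (0.142, rank 1740) and Actr3 (0.094, rank 1914) were far down the order, and Actr2 had r = -0.71 at rank 4785.

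Genes around Arpc1b on chromosome 5 did not share its range. Pdap1, whose gene lies on the minus strand at chr5:145128769-145140238 and overlaps the end of Arpc1b, was at 5.23 and 5.34 FPKM in fresh, at 4.13, 4.75 and 5.31 in vitrified and at 3.13, 2.72 and 3.45 in melatonin libraries. Its melatonin libraries were the lowest 3, unlike those of Arpc1b, with a log2 difference from vitrified embryos of -0.48 ± 0.18 (adjusted p = 0.266, limma). Whether the authors' counting used strand is not given in the sources used here. Bud31, a spliceosome-associated gene, was at 74.3 and 62.3 FPKM in fresh, at 48.8 to 61.4 in vitrified and at 42.9 to 50.6 in melatonin libraries, and differed by -0.16 between melatonin and vitrified embryos (adjusted p = 0.659, limma). Ptcd1, a mitochondrial RNA-processing gene, was at 11.8 to 15.7 FPKM in all 8 libraries. Gm4871 and 1700018F24Rik, on the other side of Arpc1a, were at most at 1.04 and 1.30 FPKM and did not enter the test, and nor did Kpna7, a minus-strand gene that overlaps the start of Arpc1a, at 0 to 0.507 FPKM. Arpc1a and Arpc1b shared no stretch of 75 bases between their annotated transcripts. A pseudogene, Gm5637, matched 3.36% of the 75-base windows of Arpc1b, and a pseudogene Gm8822 matched 16.9% of those of Actr3, so the level of Actr3 is the less certain of these.

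**Figure D4:**
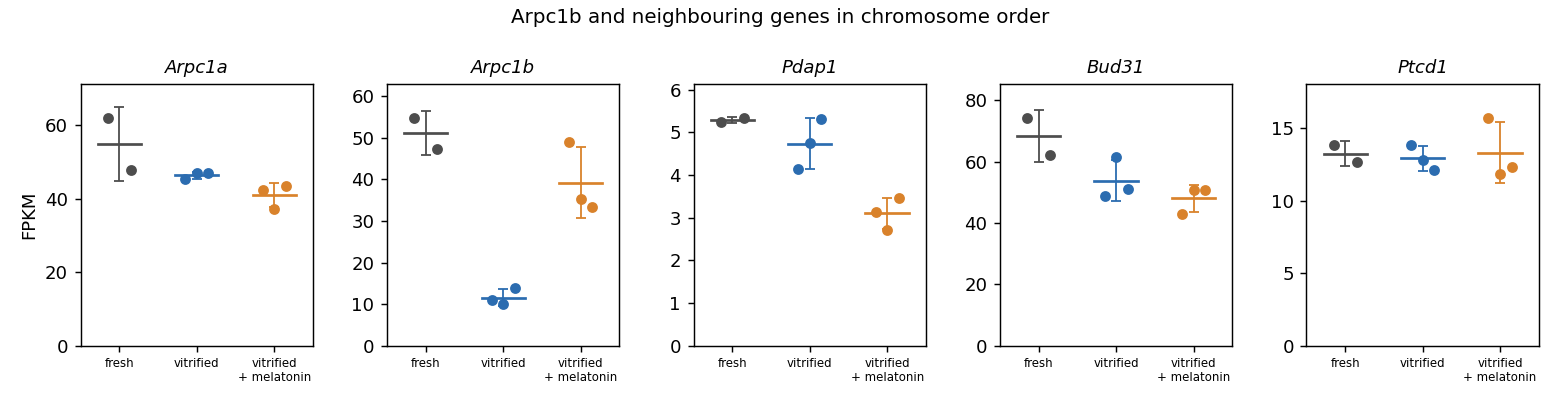
FPKM of Arpc1b and the neighbouring protein-coding genes that entered the test, in each library (points) with the group mean and SD (fresh n = 2, vitrified n = 3, melatonin n = 3), in their order along the chromosome, each on its own linear axis from 0. The drop to 9.93 to 13.9 FPKM in the vitrified libraries is seen in Arpc1b, while Arpc1a, Pdap1, Bud31 and Ptcd1 stay within 37.2 to 62.1, 2.72 to 5.34, 42.9 to 74.3 and 11.8 to 15.7 FPKM.

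Genes that switch the complex on, recycle its networks or compete with it were followed in 7 lists, of which 71 genes were in the table and 48 were tested. None of the 48 passed with limma in any of the 3 comparisons. At an unadjusted p below 0.05 there were 8 of 48 between melatonin and vitrified embryos (5 higher, 3 lower), where 14.8% of all tested genes had such a p. There were 10 of 48 between melatonin and fresh embryos, where 18.5% of all tested genes did, and 10 of 48 between vitrified and fresh embryos, where 20.2% did and 0.865% were called. The median log2 difference of the 48 between melatonin and vitrified embryos was 0.10, beside -0.05 over all tested genes.

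The activators had 6 tested members and a median of -0.09 between melatonin and vitrified embryos. Cortactin (Cttn), which holds branches together, was at 32.6 and 47.2 FPKM in fresh, at 69.1, 40.0 and 59.9 in vitrified and at 86.1, 74.6 and 61.8 in melatonin libraries. N-WASP (Wasl), which carries Cdc42 signals to the complex, was at 16.3 and 12.2, at 7.96, 9.75 and 12.8, and at 10.5, 8.19 and 10.0 FPKM. Both genes overlapped between vitrified and melatonin embryos. Whamm, which drives branching on internal membranes, was at 3.16 and 3.75 FPKM in fresh, at 8.21, 7.5 and 7.19 in vitrified and at 5.11, 6.71 and 6.00 in melatonin libraries. It came nearest to a call among the 48, with a log2 difference of 0.96 ± 0.19 between vitrified and fresh embryos (adjusted p = 0.0541, limma), and its 3 groups did not overlap.

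The WAVE complex, the activator at the cell edge, had 4 tested members and a median of 0.20 between melatonin and vitrified embryos. Its small subunit Brk1 was at 393 to 512 FPKM over the 8 libraries, Nckap1 at 7.83 to 15.4 and Cyfip1 at 8.82 to 14.6, and each overlapped between vitrified and melatonin embryos. The WASH complex, the activator on endosomes, had 4 tested members and a median of -0.10. Its subunit A230046K03Rik (Washc4 in newer annotation) was at 6.15 and 6.26 FPKM in fresh, at 10.9, 12.3 and 9.76 in vitrified and at 7.58, 7.21 and 6.41 in melatonin libraries. All 3 vitrified libraries were the highest, and the log2 difference between melatonin and vitrified embryos was -0.57 ± 0.16 (adjusted p = 0.197, limma). This gene was picked out after its values were seen.

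Inhibitors and debranching factors had 8 tested members and a median of 0.05 between melatonin and vitrified embryos. The coronins Coro1b and Coro1c, which replace Arp2/3 at branches, were at 56.0 to 90.7 and 27.4 to 72.6 FPKM, and glia maturation factor beta (Gmfb), which severs branches, was at 33.2 and 30.9 FPKM in fresh, at 21.1, 25.9 and 23.3 in vitrified and at 23.4, 22.0 and 24.4 in melatonin libraries. Both fresh libraries had the most Gmfb, and vitrified and melatonin libraries overlapped. Upstream GTPases and adaptors (10 tested), other nucleators such as formins (6 tested) and capping and severing factors (10 tested) had medians of 0.15, 0.06 and 0.16 between melatonin and vitrified embryos.

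Markers of the cell types of the embryo and of cells it could carry over were set beside these values. Between vitrified and melatonin embryos, the summed trophectoderm markers overlapped, as did the epiblast markers, at 137 to 175 and 135 to 153 FPKM. The summed primitive endoderm markers did not overlap, at 47.1 to 60.7 FPKM in vitrified and 28.4 to 37.8 in melatonin embryos, with 20.1 and 48.0 in fresh embryos. Gata6 carried most of the vitrified and melatonin sums, with means of 33.9 and 20.8 FPKM. Taken singly, Gata6, Gata4 and Pdgfra were lower in every melatonin library, 3 of 6 where 15.4% of all tested genes were. None was higher, where 9.3% were, and Sox17, Sox7 and Cubn overlapped. In fresh embryos the epiblast markers were at 27.5 and 72.4 FPKM, below all 6 other libraries. Within the epiblast list, Nanog was higher in every melatonin than in every vitrified library (means 46.1 and 31.2 FPKM). Pou5f1 (26.3 and 43.9) and Klf2 (5.54 and 13.7) were lower. That is 1 of 6 higher, where 9.3% of all tested genes had such a separation, and 2 of 6 lower, where 15.4% did. None of the 6 was called in that comparison. Of the markers tested, 1 of 6 for epiblast passed in a comparison, Nanog, which was higher in vitrified than in fresh embryos (log2 difference 2.21, adjusted p = 0.0394, limma) in a comparison that called 0.762% of all tested genes as higher, while 0 of 7 for trophectoderm and 0 of 6 for primitive endoderm passed. At an unadjusted p below 0.05 between melatonin and vitrified embryos, 0 of 7 trophectoderm, 2 of 6 epiblast and 2 of 6 primitive endoderm markers passed, against 14.8% of all tested genes. The call of Nanog was lost with quantile normalization, with no filter on low values, with a replicate block and without vitrified replicate 3. In each of these, 0 genes were called as higher. The part of these shifts in the Arp2/3 values was not tested.

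Blood cells use Arpc1b as their main form, so their markers were read as well. Of 10 blood markers, 7 were in the table, and their sum was 68.5 and 106 FPKM in fresh, 86.2 to 155 in vitrified and 150 to 152 in melatonin libraries. Lcp1, an actin bundler, carried nearly all of that sum, at 62.9 to 152 FPKM. Laptm5 was at 0.928 to 5.27 FPKM and Hcls1 at 0.308 to 2.72. The other 4 did not pass the filter on low values: Hba-a1 was at 0 to 1.34 FPKM, Hba-a2 at 0 to 0.233, Coro1a at 0 to 0.197 and Was at 0.132 to 0.979. The 3 cumulus cell markers in the table summed to 0.314 to 1.71 FPKM over all libraries, and the 3 fibroblast markers to at most 0.336 FPKM.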

How the data were processed

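RNA-seq of mouse blastocysts was analysed from a table of FPKM values that the authors deposited for 8 libraries, aligned to mm10 per the submitters' processing notes. The aligner, counter, annotation and any use of strand were not named in the labels or the file. The series text names Smart-seq2 and the sample protocol a stranded poly(A) library, and which was used is unclear. Depth is known only as estimated from the spacing of low FPKM values, 95.5% to 98.5% of which lay within 0.1 of a whole number of fragments.

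Groups were taken from the sample descriptions. Genes with at least 1 FPKM in at least 2 libraries (10755; 8933 left out) were tested on log2(FPKM + 1) with limma 3.58.1 (R 4.3.3), with a variance trend and all 3 groups in 1 fit. A gene was called where its p, adjusted by Benjamini-Hochberg over all tested genes, was below 0.05. A fold change on this scale understates the change of low genes. The method was tested on simulated data with independent normal noise in each gene and no structure among libraries. That test does not show how stable the calls are in these libraries. Shares were compared with an exact permutation test. Python 3.11.15 with numpy 2.4.6, pandas 2.3.3 and matplotlib 3.10.9 was used for the rest.

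The members, gene lists and tests were chosen with earlier results of these data known. Named genes were all subunits and Actr3b, called genes of each list, the 3 highest activators, WAVE subunits and inhibitors, the 6 genes most like Arpc1b and its 3 nearest protein-coding neighbours on each side in order of their starts, with Kpna7, which overlaps Arpc1a, added. A230046K03Rik, Ttll3 and the single trophectoderm, epiblast and primitive endoderm markers were named outside this rule, after their values were seen. Lists were matched by symbol, with 8 symbols matched through their gene identifiers. Promoters came from RefSeq (GRCm38.p6), where 8 of 9 subunits had an entry, and gene positions from GENCODE M21. Alternatives were another pseudocount (0.1), no filter on low values, no variance trend, quantile normalization, median ratio scaling, a replicate block, only the 2 groups compared, and each library left out.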

Additional observations from a re-analysis of the deposited data

How the results depend on the processing

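Of 270 alternative values of the subunits' log2 differences with a test, 257 kept their direction and side of the threshold, 4 lost the call of Arpc1b and 9 turned sign. Arpc1b between melatonin and vitrified embryos kept its call under 6 of 7 other settings and in 5 of 8 fits without 1 library. Libraries with the same replicate number did not deviate together (7 pairs, correlations -0.11 to 0.12), so numbers were not taken as pairs. With 2 fresh libraries this check is weak, since their deviations are equal and opposite. Sample titles carry other numbers. By these, vitrified replicate 1 and melatonin replicate 2 match fresh replicate 1 (correlations -0.11 and 0.04) and each other (-0.09). Vitrified replicate 3 and melatonin replicate 3 also match (-0.03). No block by title number was fitted. With a block by replicate number the adjusted p of Arpc1b was 0.0713 (limma, log2 difference 1.67). The log2 difference of Actr3 between melatonin and fresh embryos turned to -0.048. Genes called fell from 15 to 1 (melatonin against vitrified) and from 93 to 1 (vitrified against fresh). Sign turned between melatonin and fresh embryos with quantile normalization for Arpc5 (0.072) and Arpc2 (0.10). Without 1 library, Actr3 ran from -0.19 to 0.31 against vitrified embryos and, against fresh embryos, Actr3 from -0.058 to 0.35, Arpc4 from -0.041 to 0.38 and Arpc3 from -0.44 to 0.71. The Arpc1b share ran from 26.1 to 31.2 points (melatonin minus vitrified) and from -2.31 to 2.74 (melatonin minus fresh).

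Counts of called genes over the table, which serve as background here, moved more. Between melatonin and vitrified embryos, 15 became 8 with quantile normalization, 6 with a pseudocount of 0.1, 68 in a fit of the 2 groups only and 1 (without melatonin replicate 3) to 68 (without fresh replicate 2). Between melatonin and fresh embryos, 0 became 5 with a pseudocount of 0.1, 2 in a fit of the 2 groups only and 0 to 565 (without fresh replicate 2). Between vitrified and fresh embryos, 93 (82 higher, 11 lower) became 3 (0 higher, 3 lower) with quantile normalization, 7 (3 higher, 4 lower) with median ratio scaling, 1 without a filter, 11 in a fit of the 2 groups only and 2 (without vitrified replicate 3) to 433 (without fresh replicate 2). The cause of these moves was not tested. The 2 fresh libraries limit the precision of both comparisons with fresh embryos.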
